A study of Homo sapiens with 2 samples.

Results

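The mRNA levels of 10 genes of iron storage, iron uptake and ferroptosis were examined in U87, a long-established cell line from a human glioblastoma. The members were taken as a named set: the ferritin chains FTH1 and FTL, the iron regulatory proteins ACO1 and IREB2, the import genes TFRC, STEAP3 and SLC11A2, the exporter SLC40A1, the ferritin receptor NCOA4, and the ferroptosis suppressor AIFM2. All 10 had transcripts in the deposited table, out of 41582 genes with a symbol. The cells, with the genotype label WT, were kept in RPMI with fetal bovine serum and were treated for 72 h with DMSO, the vehicle, or with CCA-1.1, a curcumin analog. The concentration of CCA-1.1 in the sequenced culture is not given in the sources used here. There was 1 library per treatment, so the differences below could not be set against a spread between replicates, and no test was run. The comparison asks how treatment with CCA-1.1 changed the transcriptome of these cells.

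Iron enters most cells bound to transferrin, is released and reduced in endosomes, and is moved to the cytosol, where the surplus is stored inside ferritin shells. Iron regulatory proteins bind a hairpin, the iron responsive element, in the mRNA of several of these genes when iron is scarce. In this way they block translation of ferritin and ferroportin mRNA and stabilise the mRNA of the transferrin receptor, so part of the control of ferritin does not show in mRNA levels. Ferroptosis is a form of cell death driven by iron-dependent peroxidation of membrane lipids, and many tumour cells, glioblastoma cells among them, take up and store much iron.

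The hairpins are shown because they take part in this control, though a strict search need not find every member that has one. The search looked for a C, then 5 bases, the loop CAGTGN and 5 bases able to pair with the first 5, with G-T pairs allowed, on the transcript strand of human GENCODE protein-coding transcripts (GRCh37). It was found in the untranslated ends of 4 of the 10 members. Among all genes with such ends annotated, 0.20% of 19264 held it in the 5′ end and 0.72% of 19683 in the 3′ end, though these ends differ in length. The members were named as iron genes, several of them known to carry the element, so these shares test no enrichment. The loop is in capitals, and 6 bases are given before the unpaired C and 6 after the paired part.
FTH1, 5′ end: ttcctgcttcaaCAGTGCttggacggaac
FTL, 5′ end: ctcttgcttcaaCAGTGTttggacggaac
SLC40A1, 5′ end: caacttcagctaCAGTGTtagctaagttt
TFRC, 3′ end, site 1: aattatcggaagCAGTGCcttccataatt
TFRC, 3′ end, site 2: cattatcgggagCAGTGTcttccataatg
TFRC, 3′ end, site 3: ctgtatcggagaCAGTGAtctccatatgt
TFRC, 3′ end, site 4: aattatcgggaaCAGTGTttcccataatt
The ferritin and ferroportin genes carried 1 site of this strict form each before the coding sequence, and TFRC carried 4 after it. For SLC11A2, NCOA4, IREB2, ACO1, STEAP3 and AIFM2, this arrangement of letters was not in the annotated ends. That says nothing about looser forms of the element, which were not searched in any member, TFRC among them.

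The values are TPM, a unit that divides reads by transcript length and by the library total and is scaled to the same sum in each library, so levels of different genes can be set side by side but the read depth is unknown. Gene levels are sums over the transcripts of a gene. Differences are log2((CCA-1.1 TPM + 1) / (DMSO TPM + 1)), positive when higher in the CCA-1.1 library. None of the 10 members differed by more than 2-fold, where 0.215% of the 7906 protein-coding genes whose mean level reached 10 TPM did. None passed a lower size of 25% either, which means here that the larger value, with 1 TPM added, was over 25% above the smaller (0.32 on the log2 scale). Of the same 7906 genes, 4.33% were higher with CCA-1.1 and 3.62% were lower by more than this size, so an absence of such differences among 10 genes is near the background. With each gene reduced to its leading transcript, 2 members passed the 25% size, SLC11A2 (-0.35) and IREB2 (0.39), and NCOA4 turned from -0.17 to 0.070. How many of the 7906 genes pass it in this way was not computed, so the shares above are no background for these 2. The 9 members above 0 TPM all lay between the 5th and 95th percentiles of these genes, which were -0.29 and 0.31. In the CCA-1.1 library 2 members were higher, IREB2 and FTL, and 7 were lower. The median over these 9 members was -0.039, and the median over the 7906 genes was 0.0039. With SLC40A1, at 0 TPM in both libraries, entered as no difference, the median over all 10 was -0.034.

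**Figure D1:**
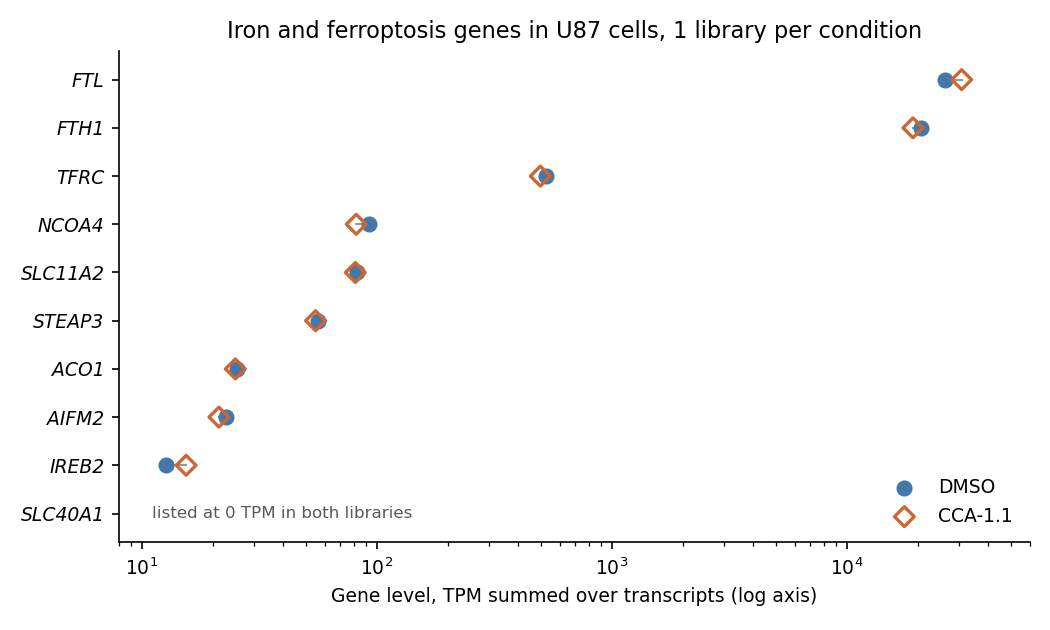
Gene level in TPM (log axis) of the 10 members in the DMSO library (filled circles) and the CCA-1.1 library (open diamonds), 1 library each. FTL and FTH1 stand from 19108.6 to 30788.2 TPM, TFRC at 522.5 and 496.3 TPM, the other expressed members from 12.6 to 92.3 TPM, and SLC40A1 is listed at 0.

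Ferritin mRNA was the most abundant of the set in both libraries. FTL (Entrez 2512, chromosome 19, 48965309 to 48966879, GRCh38.p14) encodes the light chain, which aids mineralisation of iron inside the shell. Its transcript NM_000146.4 was at 26272 TPM with DMSO and 30788.2 TPM with CCA-1.1, a difference of 0.23. It ranked at position 1 of all 177816 transcripts in each library. FTH1 (Entrez 2495, chromosome 11, 61964285 to 61967634) encodes the heavy chain, which holds the ferroxidase activity. Its transcript NM_002032.3 was at 20579.7 TPM with DMSO and 19108.6 TPM with CCA-1.1, a difference of -0.11, and it ranked at position 3 in each library. The light-chain mRNA was thus the higher of the pair in both libraries, and the mRNA levels differed from DMSO in opposite directions. Protein levels of the chains were not measured.

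Within a library, FTL was 1.28 times FTH1 with DMSO and 1.61 times with CCA-1.1. On the log2 scale this ratio was higher by 0.34 in the CCA-1.1 library. That it exceeds the difference of either mRNA follows from their opposite directions. Ratios between other genes were not computed as a background. Both mRNAs together made up 4.69% of all TPM with DMSO and 4.99% with CCA-1.1. The sum was 46851.7 TPM and 49896.8 TPM, a difference of 0.09. Of the 113 genes whose mean reached 1000 TPM, a set chosen after the ferritin values were seen, 28 (24.8%) passed the 25% size, none passed 2-fold, and 44 had a larger difference in size than FTL. For FTH1 that number was 85. Most genes of this set were far less abundant than ferritin, so it is no set of like level.

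**Figure D2:**
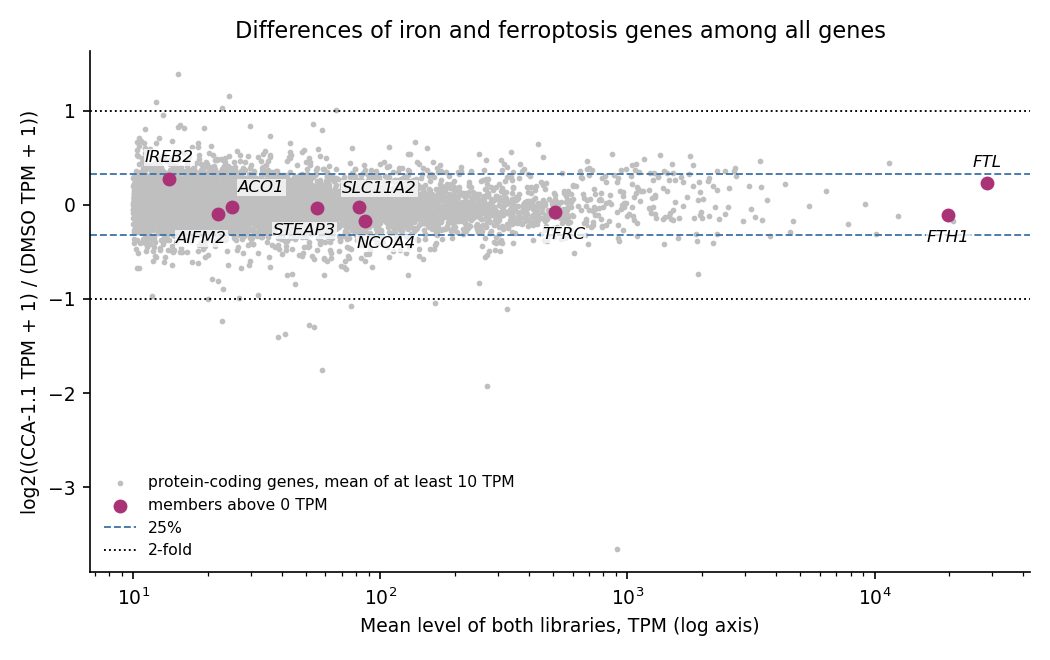
Difference between the libraries (log2 scale) against mean level in TPM (log axis) for 7906 protein-coding genes in grey and for the 9 members above 0 TPM in purple, with dashed lines at the 25% size and dotted lines at 2-fold. All labelled members lie between the dashed lines, with IREB2 at 0.27 and FTL at 0.23 as the highest.

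The mRNA of the iron regulatory proteins was at far lower levels than that of their ferritin targets. ACO1 (Entrez 48, chromosome 9, 32384643 to 32454769) encodes IRP1, which acts as cytosolic aconitase while it holds an iron-sulfur cluster and binds RNA without it. It was at 25.4 TPM with DMSO and 25 TPM with CCA-1.1, a difference of -0.022. IREB2 (Entrez 3658, chromosome 15, 78437431 to 78501453) encodes IRP2, which is degraded when iron is plentiful. It was at 12.6 TPM with DMSO and 15.4 TPM with CCA-1.1, a difference of 0.27. This was the largest difference of the set, yet 12.6% of the 7906 genes had a larger one in either direction. ACO1 was the higher of the pair in both libraries, at 2.01 times IREB2 with DMSO and 1.62 times with CCA-1.1. IREB2 supplied 33.2% of the TPM of the pair with DMSO and 38.2% with CCA-1.1.

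Genes of iron uptake were near the same level in both libraries. TFRC (Entrez 7037, chromosome 3, 196049284 to 196082090) encodes the transferrin receptor, which carries transferrin-bound iron into endosomes. It was at 522.5 TPM with DMSO and 496.3 TPM with CCA-1.1, a difference of -0.07. STEAP3 (Entrez 55240, chromosome 2, 119223834 to 119265652), the endosomal ferrireductase, was at 56.4 TPM with DMSO and 54.9 TPM with CCA-1.1, a difference of -0.04. SLC11A2 (Entrez 4891, chromosome 12, 50952263 to 51028886) encodes DMT1, which moves reduced iron out of the endosome. It was at 82.7 TPM with DMSO and 81.0 TPM with CCA-1.1, a difference of -0.03. All 3 import genes had lower values with CCA-1.1, with differences of -5.02%, -2.7% and -1.97% of the DMSO level. More than 60% of the 7906 genes differed by more than any of them (62.7% for TFRC, 79.6% for STEAP3 and 85.0% for SLC11A2).

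The exporter was not seen. SLC40A1 (Entrez 30061, chromosome 2, 189560590 to 189580786) encodes ferroportin, the iron exporter of animal cells. Both of its transcripts in the table were listed at 0 in both libraries, so it has no fold change. From TPM alone no upper limit follows for this value. The hormone that degrades ferroportin, HAMP (hepcidin), was also listed at 0 in both.

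NCOA4 (Entrez 8031, chromosome 10, 46005088 to 46030623) encodes the receptor that delivers ferritin to lysosomes, where its iron is released. It was at 92.3 TPM with DMSO and 81.7 TPM with CCA-1.1, a difference of -0.17 and the lowest of the set. Of the 7906 genes, 28.9% had a larger difference. AIFM2 (Entrez 84883, chromosome 10, 70112271 to 70132825) encodes FSP1, a reductase that keeps coenzyme Q in the form that traps lipid radicals. It was at 22.8 TPM with DMSO and 21.3 TPM with CCA-1.1, a difference of -0.097, with 53.5% of genes at a larger one. Both were lower in the CCA-1.1 library by less than the 25% size.

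By level, the order of the members was the same in both libraries, from FTL through FTH1, TFRC, NCOA4, SLC11A2, STEAP3, ACO1, AIFM2 and IREB2 to SLC40A1. The levels of the 9 expressed members spanned 2080-fold with DMSO and 1990-fold with CCA-1.1. NCOA4 and SLC11A2 were neighbours at 81.7 TPM and 81.0 TPM with CCA-1.1, a gap that cannot be judged without replicates. FTH1 was 39.4 times TFRC with DMSO and 38.5 times with CCA-1.1. That ratio differed by -0.033 on the log2 scale, while FTL over TFRC differed by 0.30.

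Most genes of the set have several RefSeq transcripts, 56 in all, of which 50 were above 0 and 30 had a mean of at least 1 TPM. With 1 TPM added to each value, no transcript of these 30 passed 2-fold, where 7.04% of the 34503 transcripts at that level did. Without the minimum there was 1, the SLC11A2 non-coding transcript NR_166668.1, at 1.73 TPM with DMSO and 0.18 TPM with CCA-1.1. Its mean of 0.955 TPM lay just below the minimum, and the share of all transcripts past 2-fold without a minimum was not computed. The added 1 TPM shrinks differences at such levels. Without it, STEAP3 NM_138637.3 (0.5 TPM with DMSO, 1.74 TPM with CCA-1.1) and XM_011511403.2 (2.09 and 0.7 TPM) differed by more than 2-fold. So did TFRC NM_001313966.2 (2.41 and 1.05 TPM) and NM_001313965.2 (1.38 and 0.62 TPM). No share of all transcripts was computed for values without the added 1 TPM. The same transcript led its gene in both libraries for each of the 9 expressed members. Kallisto divides reads that match several transcripts by estimation, so transcript values are less certain than gene sums.

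**Figure D3:**
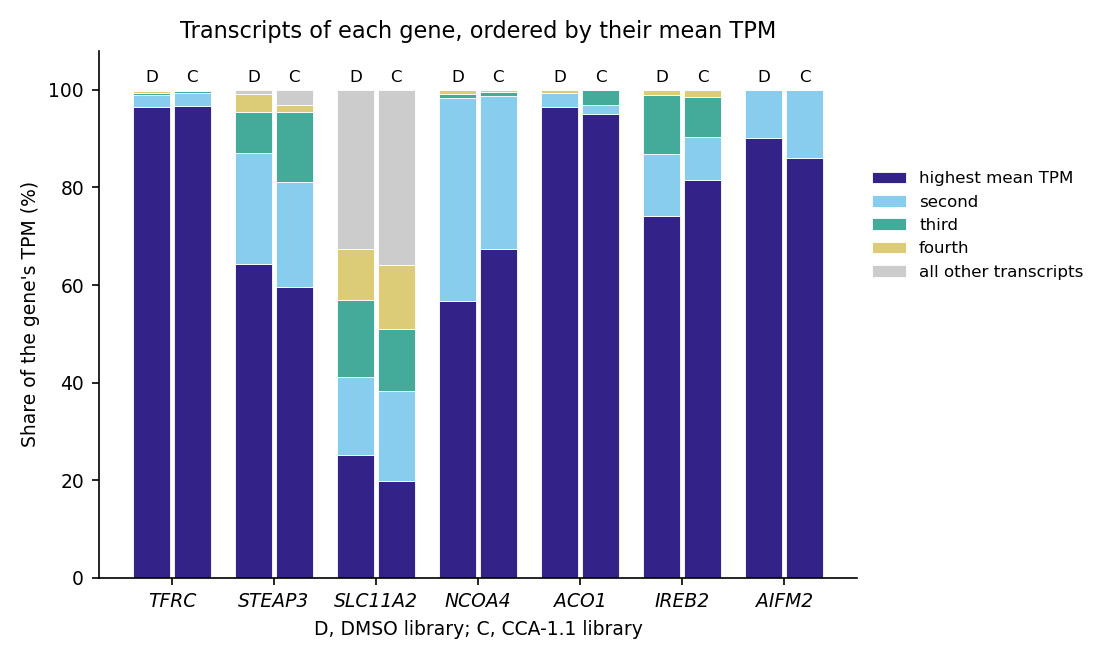
Share of each gene's TPM (%) held by its 4 transcripts with the highest mean and by all others, for the 7 expressed members with more than 1 transcript, in the DMSO (D) and CCA-1.1 (C) libraries. TFRC and ACO1 rest almost wholly on 1 transcript, SLC11A2 is spread over many, and the leading NCOA4 transcript takes 56.7% with DMSO and 67.3% with CCA-1.1.

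The largest shift in shares was in NCOA4. Its leading transcript NM_001145263.2 was at 52.3 TPM with DMSO and 55.0 TPM with CCA-1.1, while NM_005437.4 was at 38.5 TPM and 25.8 TPM. The difference of NM_005437.4 was -0.56, so the lower NCOA4 sum came from this transcript. For IREB2, NM_004136.4 was at 9.36 TPM with DMSO and 12.6 TPM with CCA-1.1, a difference of 0.39, and its share was 74.2% and 81.6%. The other 2 IREB2 transcripts with a mean of at least 1 TPM, NM_001320942.2 and NM_001320941.2, were lower with CCA-1.1, at 1.6 and 1.34 TPM and at 1.52 and 1.26 TPM. The higher IREB2 sum thus rested on its leading transcript.

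SLC11A2 had 25 transcripts in the table, and 10 reached a mean of 1 TPM, of which 6 were higher and 4 were lower with CCA-1.1. Its leading transcript NM_000617.3 was at 20.8 TPM with DMSO and 16.2 TPM with CCA-1.1, and its share was 25.2% and 19.9%. NM_001174128.2 came next, at 13.3 TPM and 14.9 TPM. The sum over transcripts differed by -0.03, less than most of its parts. Which of these transcripts carry the iron responsive element of DMT1 was not determined here.

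In STEAP3, NM_001008410.2 led with 36.3 TPM with DMSO and 32.7 TPM with CCA-1.1, and NM_018234.3 was at 4.76 TPM and 7.98 TPM, a difference of 0.64. AIFM2 was carried by NM_032797.6, at 20.6 TPM with DMSO and 18.3 TPM with CCA-1.1, with NM_001198696.2 at 2.24 TPM and 2.98 TPM. TFRC rested on NM_001128148.3, which held 96.4% of its TPM with DMSO and 96.6% with CCA-1.1. ACO1 rested on NM_002197.3, with 96.5% and 95.1%. The ACO1 transcript XM_047423430.1 went unseen with DMSO (0 TPM) and had 0.78 TPM with CCA-1.1, and NM_001278352.2 had 0.18 TPM with DMSO and 0 TPM with CCA-1.1. The ACO1 sum differed by -1.57% of its DMSO level.

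Other genes of iron and ferroptosis were examined by lists, whose counts past the 25% size can be read against the 4.33% of the 7906 genes that were higher and the 3.62% that were lower. The list of iron uptake and efflux holds 19 genes, of which 10 had a mean of at least 10 TPM. Of these, 2 were higher and 8 were lower with CCA-1.1, none by over 25%, and the median was -0.079. The most abundant were B2M, the partner chain of the iron regulator HFE, at 12977.3 TPM with DMSO and 11916.1 TPM with CCA-1.1, and the scavenger receptor LRP1 at 441.3 TPM and 423.2 TPM. The lowest differences were those of MYOF (-0.19) and HFE (-0.16), and the highest were those of HEPH (0.014), a ferroxidase, and STEAP1 (0.0087). The serum carrier TF was at 0.45 TPM and 0.46 TPM.

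Of 17 genes of intracellular iron handling, 13 had a mean of at least 10 TPM, with 6 higher, 7 lower, none of them past the 25% size, and a median of -0.0062. EPAS1, which encodes the hypoxia factor HIF-2 alpha, was lowest (-0.18), followed by PCBP3 (-0.17), and the highest were GLRX3 (0.17), which handles iron-sulfur clusters, and FBXL5 (0.14), the iron-sensing ligase subunit that marks IRP2 for degradation. HIF1A and EPAS1 had the highest levels, with HIF1A at 533.6 TPM and 517.1 TPM and EPAS1 at 408.2 TPM and 361.2 TPM. The iron chaperones PCBP1 (0.031) and PCBP2 (0.023) were level within a few percent.

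Of 38 genes of mitochondrial iron, iron-sulfur clusters and heme, 26 had a mean of at least 10 TPM, with 15 higher, 11 lower and a median of 0.035. CPOX, an enzyme of heme synthesis, was past the 25% size, at 22 TPM with DMSO and 28.2 TPM with CCA-1.1. It was followed by SLC25A28 (0.19), a mitochondrial iron importer, and the lowest were GLRX5 (-0.22) and HMOX2 (-0.17). ISCU, the cluster scaffold, and BLVRB had the highest levels, at 478.7 TPM and 434.4 TPM and at 436.0 TPM and 411.0 TPM. HMOX1, the inducible heme oxygenase that frees iron from heme, was at 186.3 TPM with DMSO and 186.0 TPM with CCA-1.1.

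Of 22 genes of ferroptosis defence, 19 had a mean of at least 10 TPM, with 9 higher, 10 lower and a median of -0.0026. SLC7A11, the cystine importer, was past the 25% size at 18.0 TPM with DMSO and 23.1 TPM with CCA-1.1, a difference of 0.34. GCH1, which starts tetrahydrobiopterin synthesis, was past it in the other direction, at 15.1 TPM and 11.6 TPM. FDFT1 (0.23), of sterol synthesis, was next highest, and PRDX6 (-0.20) was next lowest. The chaperone HSPB1 at 3714.5 TPM and 3318.2 TPM and the desaturase SCD at 2900.2 TPM and 3327.8 TPM had the highest levels. GPX4, the lipid hydroperoxidase that guards against ferroptosis, was at 1112.8 TPM with DMSO and 1141.3 TPM with CCA-1.1, a difference of 0.037.

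Of 28 genes of ferroptosis promotion, 17 had a mean of at least 10 TPM, with 5 higher and 12 lower, none of them by over 25%, and a median of -0.061. SAT1, the polyamine acetyltransferase, was lowest, at 2104.0 TPM with DMSO and 1698.3 TPM with CCA-1.1 (-0.31), followed by ATG7 (-0.22). SLC1A5, a glutamine importer, was at 400.6 TPM and 372.3 TPM. ACSL4, which loads polyunsaturated fatty acids for membrane lipids, was highest by difference, at 121.3 TPM and 131.95 TPM (0.12), followed by SAT2 (0.054). No gene of these lists with a mean of at least 10 TPM passed 2-fold, where 0.215% of the 7906 genes did. Below that level none passed it either, but the added 1 TPM hides differences near 0. Examples are LCN2 (0.6 TPM with DMSO and 0.27 TPM with CCA-1.1) and NOX4 (0.12 and 0.03 TPM).

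**Figure D4:**
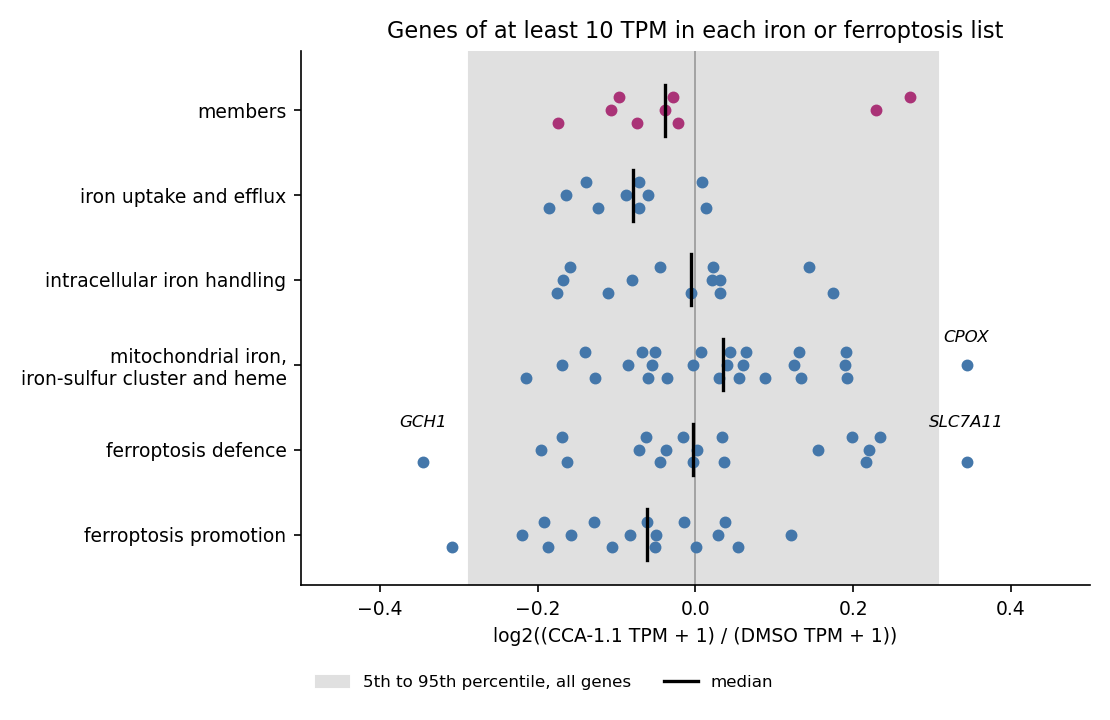
Differences (log2 scale) of the genes reaching a mean of 10 TPM in each list, 1 point per gene, with the list median as a black bar and the 5th to 95th percentile of 7906 genes shaded. The list medians run from -0.079 (iron uptake and efflux) to 0.035 (mitochondrial iron, iron-sulfur cluster and heme), against 0.0039 over the 7906 genes. The 3 named genes, GCH1, CPOX and SLC7A11, lie past the 25% size.

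The label of the line was checked on marker genes. Of 7 glial and mesenchymal markers, VIM, FN1 and CD44 had means from 540.0 TPM to 10164 TPM, while the astrocyte markers GFAP (0.41 and 0.57 TPM) and S100B (listed at 0) were near or at 0. These 3 markers were lower with CCA-1.1, with differences from -0.36 to -0.05, and CD44 (-0.36) was past the 25% size. Below 10 TPM were NES (7.53 and 7.62 TPM) and SOX2 (1.87 and 1.45 TPM). Of 14 markers of erythroid cells, hepatocytes and macrophages, cell types with much iron traffic, CD68 alone had a mean of at least 10 TPM. It was at 494.2 TPM with DMSO and 397.1 TPM with CCA-1.1, while the macrophage markers CD163 (2.11 and 3.61 TPM) and CD14 (1.82 and 1.54 TPM) were low and PTPRC and AIF1 were at or below 0.09 TPM. The part of these markers in the values of the members was not tested.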

How the data were processed

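RNA was sequenced from U87 cells treated with DMSO or CCA-1.1 for 72 h, 1 library each. The authors enriched mRNA, checked reads with FastQC 0.11.9 and MultiQC 1.1 (versions from the submitters' processing notes), and used Kallisto on GRCh38.p14 transcripts for quantification. The deposited values are TPM with 2 decimals, identified as such because the columns sum to 999999.07 and 999999.81. The authors' edgeR results were not used. A count test does not suit TPM, which keeps no read depth, so no interval for counting error is given.

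Transcripts were matched to symbols by RefSeq identifier without version (169966 of 177816) and summed per gene. Python 3.11.15, numpy 2.4.6, pandas 2.3.3 and matplotlib 3.10.9 were used. The calculation was tested on simulated data with known changes. Whether the libraries came from more than 1 culture each is not given in the sources used here.

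The members and lists, the 25% size and the minimum of 10 TPM were chosen with earlier results of these data known. Named genes were all members, transcripts that lead a member, and, per list, genes past 2-fold, the 2 highest and 2 lowest differences at 10 TPM or more and the 2 highest levels. Genes past the 25% size and others with a known central role (TF, PCBP1, PCBP2, HMOX1, GPX4, HAMP and further transcripts) were named after their values were seen. Likeness of pattern to other genes was not computed, since 2 libraries give 1 difference per gene. The hairpin search used GENCODE transcripts of another build (GRCh37) and prints no coordinates from it. Alternatives were a pseudocount of 0.1 TPM or none, median-ratio scaling, curated transcripts, the leading transcript, versioned identifiers, ferritin pseudogenes added, a minimum of 10 TPM and FTL left out of the totals. Some items of the lists are not reported here.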

Additional observations from a re-analysis of the deposited data

How the results depend on the processing

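No member passed 2-fold under any of the 9 alternatives, and the median over members stayed between -0.056 and -0.027. No paired analysis was possible because each treatment had 1 library, which also leaves no fit without a library. With the leading transcript only, 2 members passed the 25% size, SLC11A2 (-0.35) and IREB2 (0.39), and no background share was computed for this setting. Under the same setting NCOA4 turned to 0.070 and STEAP3 was at -0.15, since transcripts were left out of the sums. Under the other 8 alternatives no member changed its sign or moved by more than 0.106, the median absolute deviation of the 7906 genes. That value is a spread between genes in their difference, and it does not measure a spread between replicates. The background share past 2-fold was 3.56% over all genes whose mean reached 1 TPM and 0.0% over the 113 genes whose mean reached 1000 TPM, a set chosen after seeing the data. The share past the 25% size was 18.4% and 24.8% over the same sets, against 7.94% of the 7906 genes. Leaving FTL out of the totals was also chosen after seeing the data. The unknown read depth limits every value near 0, SLC40A1 among them.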

Other observations

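Ferritin has many processed pseudogenes in the human genome, and the table lists 2 of them under their own symbols. FTH1P3 was at 2 TPM with DMSO and 0.88 TPM with CCA-1.1, and FTLP10 was at 0.04 TPM and 0.06 TPM. Added to their parent genes, they changed neither FTH1 (-0.11) nor FTL (0.23) at the digits given. Reads from ferritin pseudogenes that the table does not list would count toward FTH1 or FTL, and their number was not tested.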
